A study of Mus musculus with 15 samples.

Results

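The miR-30 family of microRNAs was followed through the 5 conditions of a profiling study of islet cell lines. Members were chosen by name, as every assay for mmu-miR-30a, mmu-miR-30b, mmu-miR-30c, mmu-miR-30d or mmu-miR-30e (mmu for mouse, left out below), whichever gene copy or strand it detects. This gave 11 of 584 miRNA assays, of which 5 measured guide strands and 6 measured the opposite strands, written with an asterisk. The guide strands were all on card A and the opposite strands all on card B, and the miR-30d* assay was designed for the rat miRNA.

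MiRNAs were quantified by TaqMan real-time PCR on a pair of rodent low density array cards in 15 mouse RNA samples, 3 for each of 5 conditions. αTC1-6 is a single clone of a glucagon-producing α-cell tumour line, and βTC1 is an insulin-producing β-cell tumour line. Both descend from islet tumours driven by a viral oncogene, so they are models of α and β cells and not the normal cells. Untreated βTC1 cells were sampled at 24 h. αTC1-6 cells were sampled at 24 h and 48 h, either untreated or exposed to a cocktail of TNFa and IFNg, each at 1000 IU/ml, with IL1b at 50 IU/ml, and no cytokine-treated βTC1 sample was analysed here. The islet marker miR-375 had a Ct of 13.4 to 14.9 in the untreated cells of both lines at 24 h. Of the other islet markers, miR-7a had a Ct in all of these samples. MiR-7b had one in 2 of 3 αTC1-6 samples and in 3 of 3 βTC1 samples. The lines could not be checked against glucagon or insulin mRNA, which these cards do not measure.

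The miR-30 guide strands act as repressors of partly complementary messenger RNAs, and bases 2 to 8 of a miRNA, its seed, decide most of that pairing. All guides of the family carry the same seed, so they can reach overlapping targets. In pancreas the family is known for restraining mesenchymal transcripts such as vimentin and Snail in islet-derived cells, and miR-30d is known for raising insulin gene expression in β cells. A miRNA hairpin gives a guide strand and an opposite strand, and for miR-30a and miR-30e the opposite strand also accumulates in many tissues.

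Mature sequences from RefSeq (GRCm38.p6) were found for 7 of the 11 members, and they are shown here 5′ to 3′ with the seed in capitals because the seed sorts the family into its strands. MiR-30b, miR-30d and their opposite strands are named only. The guides miR-30a, miR-30c and miR-30e and the relative miR-384-5p, which is outside the family, shared the seed GUAAACA:
miR-30a: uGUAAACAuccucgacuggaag
miR-30e: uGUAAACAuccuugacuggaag
miR-30c: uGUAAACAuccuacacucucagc
miR-384-5p: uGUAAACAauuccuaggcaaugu

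The opposite strands fell into a UUUCAGU pair and a UGGGAGA pair:
miR-30a*: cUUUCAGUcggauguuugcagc
miR-30e*: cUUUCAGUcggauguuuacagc
miR-30c-1*: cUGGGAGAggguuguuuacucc
miR-30c-2*: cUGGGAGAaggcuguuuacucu

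Of 1679 mature miRNAs in the RefSeq table, 4 had the seed GUAAACA, and they are the sequences in the first set above. MiR-30b and miR-30d had no entry there, so this count leaves them out. Counted from 1 at the 5′ end, miR-30a and miR-30e differed at a single base (C13U), and so did miR-30a* and miR-30e* (G18A). MiR-30c differed from miR-30a at 5 of 22 positions, all after the seed. Assays for near-identical strands may detect each other, and their specificity was not tested.

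The family comes from 3 pairs of genes in the mouse genome (GRCm38.p6). Mir30a (chr1:23272269-23272339) and Mir30c-2 (chr1:23291701-23291784) lie 19361 bases apart, outside any gene of the RefSeq table. Mir30c-1 (chr4:120769534-120769622) and Mir30e (chr4:120772606-120772697) lie 2983 bases apart within the bounds of the protein-coding gene Nfyc. Mir30b (chr15:68337415-68337510) and Mir30d (chr15:68341208-68341289) lie 3697 bases apart, again outside any listed gene. The miR-30c guide is made from both Mir30c-1 and Mir30c-2, so its assay cannot tell the loci apart, whereas their opposite strands have an assay each.

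The cycle at which a signal crosses the detection threshold is the Ct, and ΔCt is the Ct minus that of miR-26a in the same sample, so a lower ΔCt means more miRNA. Levels and differences are given on the log2 scale, where a difference of 1 is 2-fold. Every member was detected, with a Ct in all but 3 of 240 wells, and these 3 all belonged to miR-30c-1* in cytokine-treated αTC1-6 cells of 48 h. The Ct ranged from 14.9 to 22.9 for the guides and from 18.3 to 20.0 for miR-30a* and miR-30e*. It was 25.0 to 29.0 for miR-30b* and miR-30d*, and 26.04 or higher for miR-30c-1* and miR-30c-2*. Assays amplify with different efficiency, so these ranges do not rank the members by abundance.

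Precision differed between the members. The guides had a single well per sample. Of the opposite strands, miR-30a*, miR-30b* and miR-30e* had duplicate wells with median differences of 0.0529, 0.163 and 0.101 cycles. The duplicate wells of miR-30c-1* differed by a median of 0.864 cycles, and those of miR-30c-2* by a median of 1.24 and up to 5.81 cycles. The Ct of miR-26a ran from 17.0 to 19.0, and in each of the 4 αTC1-6 conditions it was highest in replicate 1. Replicate 1 also had the lowest ΔCt in 18 of 20 cases for the guides in these conditions, and in 17 of 24 for the opposite strands. A high miR-26a Ct lowers every ΔCt of its sample, and the share over all miRNAs was not computed. The part these replicate 1 values play in the results was not tested.

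The Ct values were not spread evenly between whole cycles. On card A, 39.0% of 4904 miRNA Ct values lay in the last 0.1 of a cycle, which would hold 10% of evenly spread values. For the miR-30 guides this share was 53.3%, or 40 of 75 values, and it was 93.3% in untreated αTC1-6 cells of 48 h, where it held for 14 of 15 guide wells and for miR-26a in all 3 samples. In that condition the ΔCt of miR-30e was 2.95, 2.96 and 2.96 and that of miR-30d was 3.95, 3.99 and 4.02. The small spread there goes with Ct values of nearly equal decimals, and its part in the tests was not tested.

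**Figure D1:**
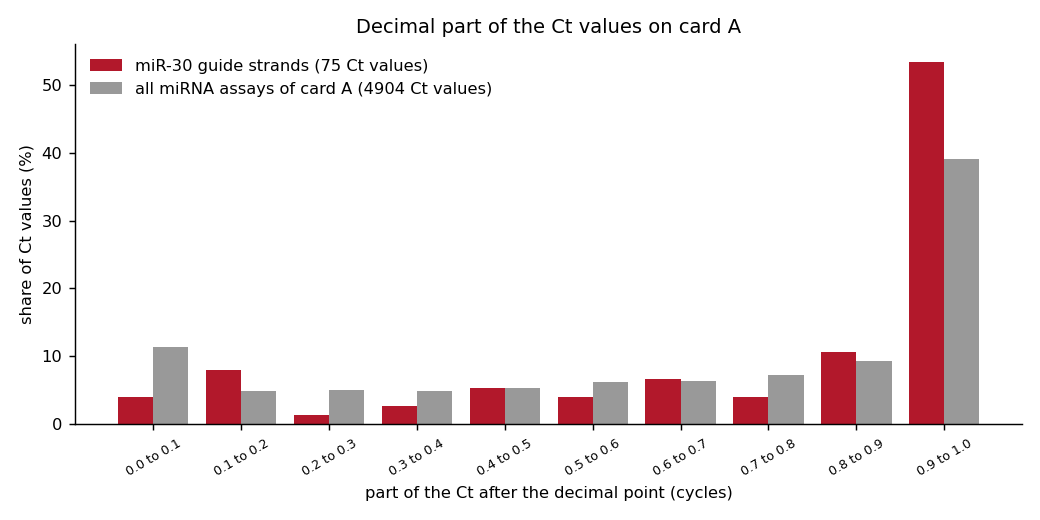
Share of Ct values (y axis, percent) by the part of the Ct after the decimal point (x axis, cycles), for the 75 Ct values of the miR-30 guide strands and the 4904 of all miRNA assays on card A. The last bar of each set holds 53.3% of the guide values and 39.0% of all values.

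The first comparison asked how the untreated lines differ at 24 h. MiR-30e was lower in αTC1-6 than in βTC1 cells and was the 1 of 11 members past the threshold, while 28.1% of the 480 miRNAs tested passed it in either direction and 16.9% passed it as lower in αTC1-6. On card A, which holds the guides, 43.8% of 281 passed, and on card B 6.03% of 199. MiR-30b, miR-30c, miR-30c-2* and miR-30e* were also lower in each αTC1-6 sample than in any βTC1 sample without passing the test. MiR-30a, miR-30d and miR-30a* had nearly equal means in the lines.

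MiR-30e, made from the chromosome 4 pair, had a ΔCt of 2.86, 2.58 and 3.23 in αTC1-6 and of 1.55, 1.18 and 1.66 in βTC1. All αTC1-6 values lay above all βTC1 values. The means were 2.89 ± 0.33 and 1.47 ± 0.25 (SD, n = 3), a log2 difference of -1.42 ± 0.43 (SE; 95% interval -2.51 to -0.34; limma adjusted p = 0.0454), or 2.68-fold less in αTC1-6. The adjusted p rose above the threshold when any of the 6 samples was left out, to 0.0957, 0.119 and 0.188 without αTC1-6 replicates 1, 2 and 3 and to 0.116, 0.116 and 0.0704 without βTC1 replicates 1, 2 and 3. The difference itself stayed between -1.58 and -1.25 in these fits. The call was also lost in alternatives such as centring each sample on its median (-0.90, limma adjusted p = 0.174) and a replicate block (0.0849).

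MiR-30c, the guide made at both the chromosome 1 and the chromosome 4 pair, had a ΔCt of -2.03, -0.58 and -0.88 in αTC1-6 and of -2.99, -2.79 and -2.59 in βTC1. The groups did not overlap, with αTC1-6 replicate 1 nearest to the βTC1 samples. This was a log2 difference of -1.63 ± 0.55 (SE), with a limma adjusted p of 0.0635. Without αTC1-6 replicate 1 it was -2.06, with an adjusted p of 0.0296.

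MiR-30b, from the chromosome 15 pair, had a ΔCt of -1.995, -1.13 and -1.10 in αTC1-6 and of -2.44, -2.62 and -2.17 in βTC1. The groups did not overlap, with αTC1-6 replicate 1 and βTC1 replicate 3 nearest to each other. They differed by -1.01 ± 0.47 (log2, SE), with a limma adjusted p of 0.155. After centring each sample on its median the difference was -0.48.

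MiR-30d, transcribed beside miR-30b, showed no such separation. Its ΔCt was 2.95, 4.45 and 3.47 in αTC1-6 and 3.25, 3.76 and 4.04 in βTC1, so that the βTC1 values lay inside the αTC1-6 range. The log2 difference was 0.06 (95% interval -1.38 to 1.5), which leaves room for more than a 2-fold difference either way.

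MiR-30a, known to target the β-cell transcription factor NeuroD, also overlapped between the lines. Its ΔCt was 1.94, 2.38 and 2.90 in αTC1-6 and 2.25, 2.20 and 2.92 in βTC1. Its log2 difference was 0.05 (95% interval -1.19 to 1.28). The signs of the miR-30a and miR-30d differences were not stable, since with U6 and small nucleolar RNAs as reference both were negative, at -0.21 and -0.20.

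**Figure D2:**
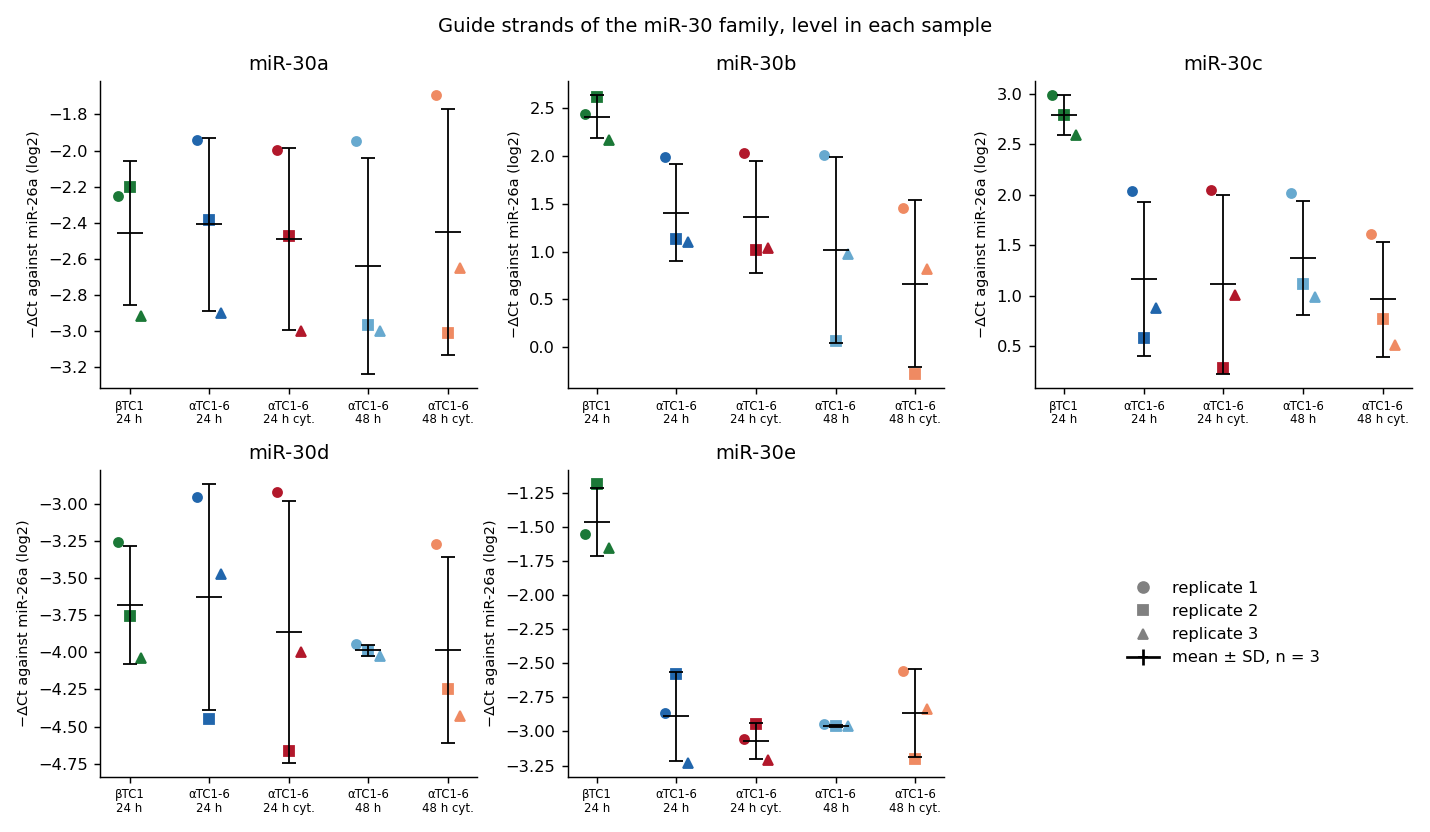
Negative ΔCt against miR-26a (y axis, log2, higher means more miRNA; scales differ between panels) of the 5 miR-30 guide strands in each sample of the 5 conditions (x axis; cyt., cytokines). Markers are replicates and bars are mean ± SD (n = 3). The βTC1 samples of miR-30b, miR-30c and miR-30e lie above all αTC1-6 samples, while those of miR-30a and miR-30d lie among them.

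Of the opposite strands with the UUUCAGU seed, miR-30e* was lower in αTC1-6, as its guide was, without passing the test. It had a ΔCt of 0.97, 1.41 and 1.78 in αTC1-6 and of 0.44, 0.15 and 0.75 in βTC1, with no overlap. Its log2 difference was -0.94 ± 0.46 (SE; limma adjusted p = 0.374). MiR-30a*, which differs from it by the base given above, had a ΔCt of 0.88, 2.00 and 1.86 in αTC1-6 and of 1.504, 1.17 and 2.37 in βTC1. Those groups overlapped, and the log2 difference was 0.10 ± 0.58 (SE).

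Of the opposite strands of miR-30c, miR-30c-2* had the largest difference of the 11 members in this fit. Its ΔCt was 14.71, 12.21 and 12.50 in αTC1-6 and 11.71, 7.73 and 8.50 in βTC1. The groups did not overlap, but βTC1 replicate 1 lay closer to the αTC1-6 samples than to the other βTC1 samples. The log2 difference was -3.82 ± 1.31 (SE; limma adjusted p = 0.203). It was -2.13 when the untreated αTC1-6 samples came from 48 h, where miR-30c-1* differed by more, at -3.11. The duplicate wells of βTC1 replicate 1 read 28.0 and 32.1 cycles, and those of αTC1-6 replicate 1 read 32.1 and 35.3 cycles.

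MiR-30c-1*, encoded beside miR-30e, had a ΔCt of 10.45, 12.01 and 13.50 in αTC1-6 and of 10.99, 8.07 and 9.82 in βTC1. The groups overlapped through βTC1 replicate 1 and αTC1-6 replicate 1. The log2 difference was -2.36 ± 1.12 (SE; limma adjusted p = 0.372). MiR-30b* and miR-30d* overlapped between the lines as well, with log2 differences of -0.43 ± 0.58 and -0.61 ± 0.74 (SE), although the former was 0.10 after centring each sample on its median.

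**Figure D3:**
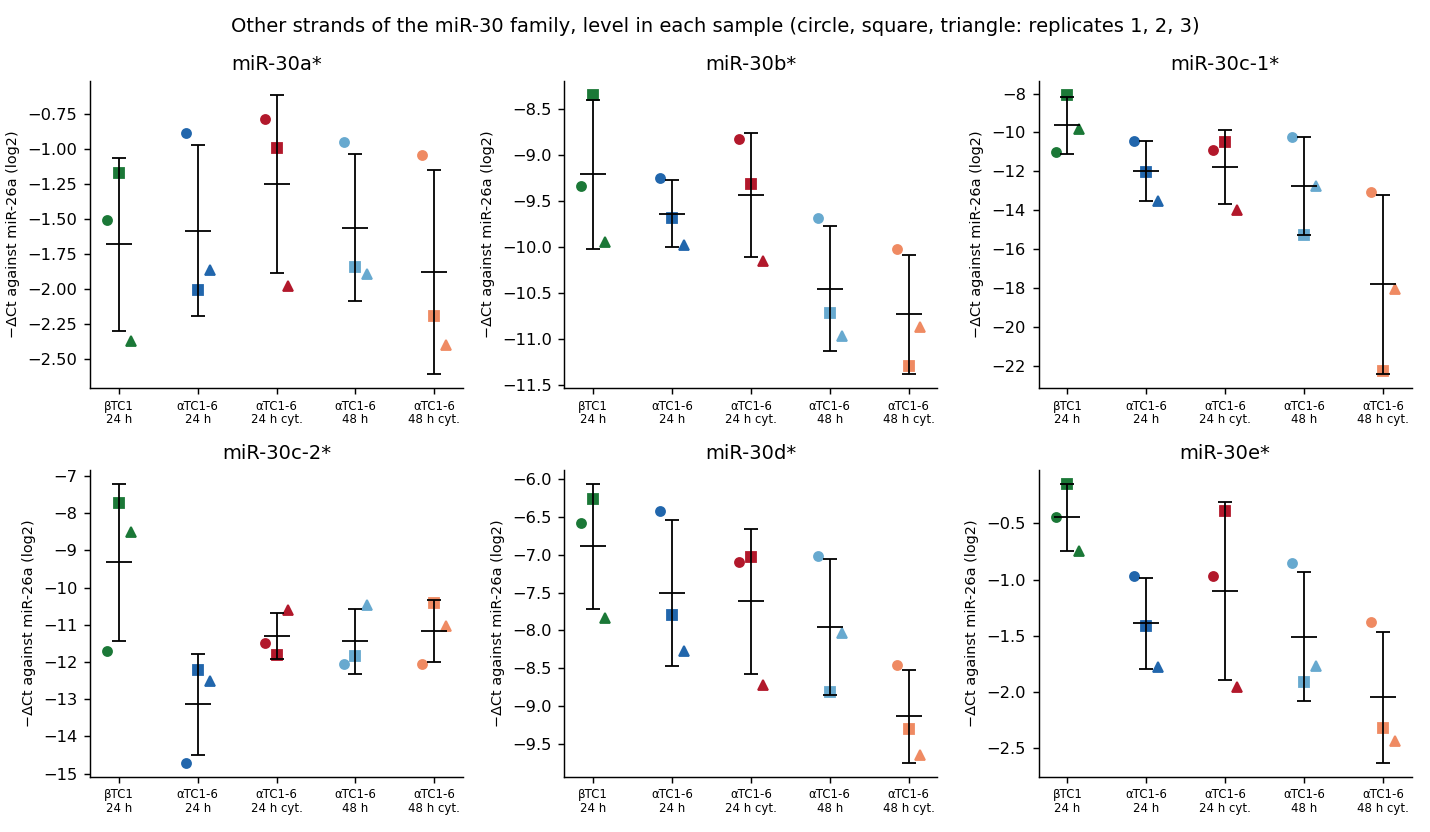
Negative ΔCt against miR-26a (y axis, log2, scales differ between panels) of the 6 opposite strands in each sample of the 5 conditions (x axis; cyt., cytokines), with replicates as markers and mean ± SD (n = 3) as bars. The lowest point of miR-30c-1*, at a ΔCt of 22.3, is the treated 48 h sample in which neither well gave a Ct.

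Across the family, 8 of 11 members had a mean below that of βTC1, while 62.5% of all 480 miRNAs tested did. The groups did not overlap for 5 members, all lower in αTC1-6, and 43.1% of all miRNAs tested did not overlap, with 26.9% lower in αTC1-6. Before adjustment 3 members had a p under 0.05, and 36.2% of all miRNAs had one. The median difference was -0.94 over the members and -0.62 over all miRNAs tested. Centring each sample on its median moved the median of all miRNAs to -0.10 and that of the members to -0.41.

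Small RNAs of other cell types moved with the same comparison. Of the exocrine pancreas list, miR-216a, miR-216b and miR-217 had no Ct in any untreated αTC1-6 sample of 24 h and a ΔCt of 4.48 to 7.38 on average in βTC1. Of the endothelial and mesenchymal list, 3 of 4 tested passed the test as lower in αTC1-6, and the ΔCt of the summed list was 6.67 in αTC1-6 and 4.34 in βTC1. For the muscle list 1 of 3 tested passed as lower, and for the blood list 0 of 3 passed the test, with summed ΔCt of 13.1 and 13.7 in αTC1-6 and of 10.8 and 11.8 in βTC1. The liver miRNA miR-122 had no Ct in the αTC1-6 samples and a Ct in 2 of 3 βTC1 samples. Their part in the miR-30 differences was not tested. For the islet list 0 of 3 passed between the lines, with log2 differences of -1.06 for miR-375, 1.24 for miR-7a and -5.38 for miR-7b. The last of these includes an αTC1-6 sample without a Ct.

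To compare the guides without the miR-26a reference, each was set against the mean of the 5 in the same sample. On this measure every αTC1-6 sample lay above every βTC1 sample for miR-30a and miR-30d, and below for miR-30b and miR-30c, in a design too small for its test to reach 0.05. The value of miR-30a was -1.14 ± 0.27 in αTC1-6 and -1.98 ± 0.15 in βTC1 (SD, n = 3), a difference of 0.84. That of miR-30d was -2.35 ± 0.50 and -3.20 ± 0.25, a difference of 0.85.

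MiR-30c went the other way, with 2.44 ± 0.33 in αTC1-6 and 3.27 ± 0.12 in βTC1, a difference of -0.84. For miR-30b the difference was smaller, at -0.21, between 2.68 ± 0.06 and 2.89 ± 0.11. These 4 guides did not overlap between the lines. Each reached an exact permutation p of 0.1 (two-sided), the smallest that 3 against 3 samples allow, and 0.5 after adjustment over the 20 comparisons of this kind. MiR-30e overlapped, with a difference of -0.63 and an exact permutation p of 0.2. Since the 5 values sum to 0 in each sample, they are not independent of each other.

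In αTC1-6 cells the same measure overlapped for all 5 guides between treated and untreated samples, at 24 h and at 48 h, and between untreated samples of 48 h and 24 h. The differences there lay between -0.31 and 0.38, with exact permutation p-values of 0.2 to 0.9.

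**Figure D4:**
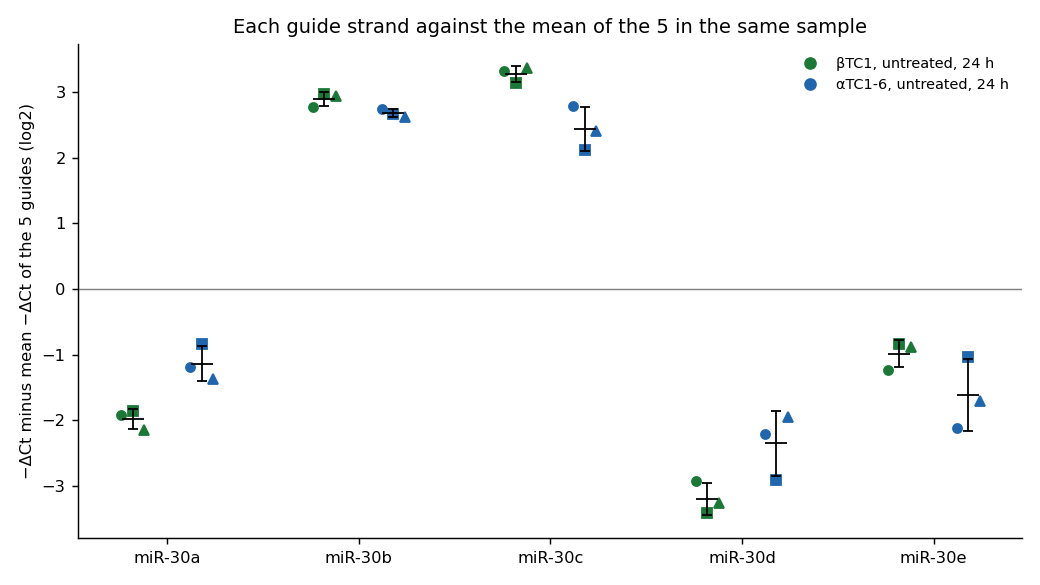
Negative ΔCt of each guide strand minus the mean of the 5 guides in the same sample (y axis, log2) in untreated βTC1 and αTC1-6 cells of 24 h, with circles, squares and triangles for replicates 1, 2 and 3 and bars for mean ± SD (n = 3). For miR-30a and miR-30d the αTC1-6 samples lie above those of βTC1, for miR-30b and miR-30c below, and for miR-30e the lines overlap.

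The second comparison asked which miRNAs respond to the cytokines. No member passed the test at 24 h by limma, and 0 had an unadjusted p under 0.05, while 0.225% of 445 miRNAs tested (1 miRNA) passed it and 3.82% had an unadjusted p under 0.05. With replicate number as a block, 0 of all miRNAs passed. The same untreated αTC1-6 samples serve in this comparison and the one above.

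The guides lay close to their untreated values. MiR-30a had a ΔCt of 2.00, 2.47 and 3.00 in treated cells against the untreated values given above, and treated minus untreated was -0.05, -0.09 and -0.10 in the 3 replicate pairs. The log2 differences were -0.08 for miR-30a, -0.05 for miR-30b and -0.05 for miR-30c, with 95% intervals that reached from -1.77 to 1.66. They were -0.24 for miR-30d and -0.18 for miR-30e, with intervals from -1.94 to 1.47 and from -1.09 to 0.73. Each of these 5 intervals reached past a 2-fold difference in at least 1 direction. With the replicate block, the SE of the 5 guides was 0.20 to 0.24, against 0.36 to 0.67 without it, and none passed.

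Among the opposite strands miR-30c-2* was the member whose groups did not overlap, and 12.6% of all miRNAs did not, with 5.62% higher in treated cells. Its ΔCt was 11.48, 11.80 and 10.60 in treated cells against 14.71, 12.21 and 12.50 in untreated cells. The treated samples were higher in level, by a log2 difference of 1.85 ± 0.82 (SE; limma adjusted p = 0.818). Without untreated replicate 1, whose wells read 32.1 and 35.3 cycles, the difference was 1.06. The other opposite strands overlapped, with treated means of 1.25 ± 0.64 for miR-30a*, 9.43 ± 0.67 for miR-30b*, 11.79 ± 1.90 for miR-30c-1*, 7.62 ± 0.96 for miR-30d* and 1.10 ± 0.79 for miR-30e* (SD, n = 3).

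At 48 h again no member passed the test by limma or had an unadjusted p under 0.05, while 0.562% of 534 miRNAs tested (3 miRNAs) passed it and 10.5% had an unadjusted p under 0.05. With the replicate block the 3 calls among all miRNAs were lost. The treated and untreated samples of all 11 members overlapped, whereas 19.3% of all miRNAs did not overlap.

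MiR-30d had a ΔCt of 3.27, 4.25 and 4.43 in treated cells and of 3.95, 3.99 and 4.02 in untreated cells, a log2 difference of 0.0027 (95% interval -1.06 to 1.06). MiR-30e had 2.55, 3.20 and 2.84 against 2.95, 2.96 and 2.96, a difference of 0.09 (95% interval -0.70 to 0.88). The untreated values of both sat inside the treated range.

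MiR-30c had a ΔCt of -1.61, -0.77 and -0.51 in treated cells and of -2.02, -1.12 and -0.98 in untreated cells. The treated sample was lower in level in 3 of 3 replicate pairs, with differences of -0.41, -0.35 and -0.48, and the log2 difference was -0.41 ± 0.49 (SE; limma adjusted p = 0.805; with the replicate block, adjusted p = 0.358). MiR-30b was lower in 3 of 3 pairs too, with a difference of -0.35, from -1.45, 0.28 and -0.82 in treated and -2.01, -0.07 and -0.98 in untreated cells. After centring on each sample's median these differences were 0.029 and 0.086, so that their direction rests on the scaling. The median over the 342 miRNAs tested on card A was -0.32 before centring. The share of all miRNAs lower in 3 of 3 pairs was not computed, here or for the opposite strands below. MiR-30a differed by 0.19, with 1.69, 3.01 and 2.65 in treated and 1.95, 2.97 and 3.00 in untreated cells.

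Of the opposite strands, miR-30d* had a ΔCt of 8.46, 9.30 and 9.65 in treated cells and of 7.02, 8.82 and 8.03 in untreated cells. Only the lowest treated value fell inside the untreated range, and the treated sample was lower in level in 3 of 3 pairs. The log2 difference was -1.18 ± 0.62 (SE; limma adjusted p = 0.386; with the replicate block, adjusted p = 0.147). The median over the 192 miRNAs tested on card B was -0.82, so much of that card was lower too.

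MiR-30c-1* had a ΔCt of 13.07, 22.29 and 18.05 in treated cells and of 10.22, 15.26 and 12.74 in untreated cells. The value 22.29 stands for a sample in which neither well gave a Ct, and 18.05 for one in which 1 of the duplicate wells did, each missing Ct being set to 40. The log2 difference was -5.07 ± 2.72 (SE; limma adjusted p = 0.386). Replicate pair 1, in which every well gave a Ct, differed by -2.85, and pairs 2 and 3 by -7.03 and -5.32. Without treated replicate 2 the difference was -2.82. With all wells lacking a Ct taken as missing it was -0.57, in a fit that keeps the untreated partner of the treated sample it drops.

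MiR-30e* and miR-30a* had treated means of 2.04 ± 0.58 and 1.88 ± 0.73 and untreated means of 1.51 ± 0.57 and 1.56 ± 0.53 (SD, n = 3). In level the treated sample was lower in 3 of 3 pairs for both, with differences of -0.52, -0.41 and -0.67 for miR-30e* and of -0.09, -0.35 and -0.51 for miR-30a*, and neither passed with the replicate block. Their log2 differences of -0.54 and -0.32 were smaller than the card B median of -0.82. MiR-30b* had means of 10.73 ± 0.65 and 10.46 ± 0.68. MiR-30c-2*, higher in treated cells at 24 h, had a ΔCt of 12.06, 10.40 and 11.03 in treated cells and of 12.05, 11.84 and 10.46 in untreated cells at 48 h, a log2 difference of 0.28 ± 0.67 (SE). In treated replicate 2 its duplicate wells read 31.0 and 25.2 cycles.

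The median difference at 48 h was -0.32 over the members and -0.51 over all miRNAs tested. After centring, the medians were 0.12 and -0.07, so the members were lower or higher in the treated cells according to the scaling. The cards also differed before centring. The guides had a median of 0.0027 against -0.32 for all miRNAs tested on card A. The opposite strands had one of -0.43 against -0.82 on card B.

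**Figure D5:**
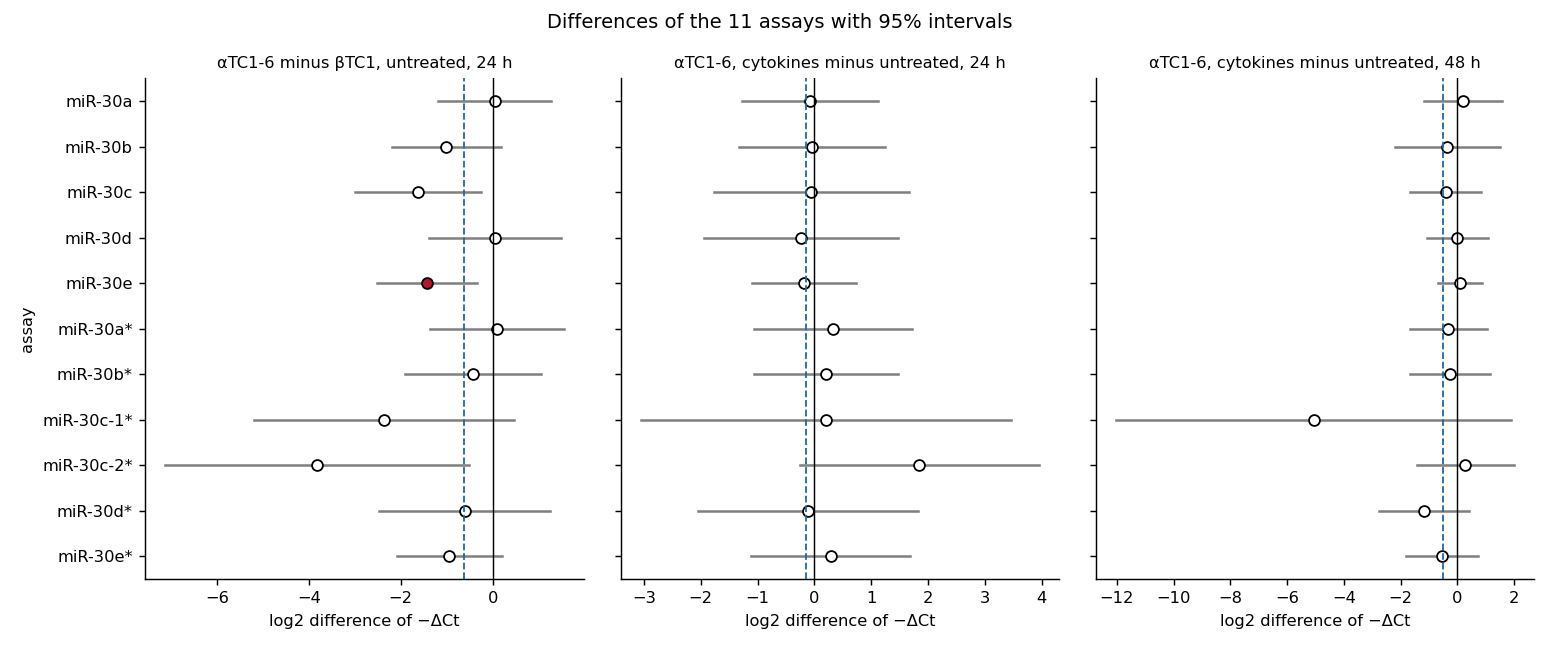
Log2 differences of the 11 miR-30 assays (x axis, scales differ between panels) with 95% intervals for αTC1-6 against βTC1 and for cytokine-treated against untreated αTC1-6 at 24 h and 48 h; the filled point passed the limma threshold and the dashed line marks the median of all miRNAs tested. Every interval in the cytokine panels covers 0, and in the first panel those of miR-30c, miR-30e and miR-30c-2* do not.

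Untreated αTC1-6 cells of 48 h were set against those of 24 h to see how far the members drift without treatment. No member passed the test by limma, 0 had an unadjusted p under 0.05, while 5.52% of 489 miRNAs tested passed it and 8.18% had an unadjusted p under 0.05. MiR-30c-2* was the 1 member whose groups did not overlap, with a ΔCt of 12.05, 11.84 and 10.46 at 48 h against 14.71, 12.21 and 12.50 at 24 h, and 14.3% of all miRNAs did not overlap, with 10.6% higher at 48 h. Its log2 difference was 1.69 ± 0.87 (SE; limma adjusted p = 0.788), and 0.91 without replicate 1 of 24 h. The untreated 24 h samples are the lower group in this comparison as in that with the treated 24 h cells. Markers of other cell types moved in the same comparison. Of the lists, 1 of 1 exocrine miRNA tested (miR-216b; limma adjusted p = 0.0387), the liver miRNA miR-122 (0.00244) and 1 of 5 endothelial and mesenchymal miRNAs (miR-143; 0.0124) passed as higher at 48 h, and 0 of 3 blood, 0 of 3 muscle and 0 of 3 islet miRNAs passed. MiR-216b, miR-122 and miR-143 had no Ct in any untreated sample of 24 h and one in every untreated sample of 48 h. With a Ct at 48 h alone, they could only be higher there. Their p-values set measured Ct values against the fixed value given to wells without a Ct. With wells lacking a Ct taken as missing, the 27 calls among all miRNAs in this comparison became 0. MiR-216a and miR-217 had no Ct at either time. The ΔCt of the summed list went from 20.3 to 15.4 for the exocrine list and from 6.67 to 7.13 for the endothelial and mesenchymal list. Their part in the miR-30c-2* difference was not tested.

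Whether the response to cytokines changed from 24 h to 48 h was tested as an interaction. This passed by limma for 0 of 11 members and 0 had an unadjusted p under 0.05, against 0.21% of 477 miRNAs tested (1 miRNA) and 3.56% with an unadjusted p under 0.05.

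When the 5 conditions were ordered by their mean level, βTC1 was the highest for 8 of 11 members, the exceptions being miR-30a, miR-30d and miR-30a*. The share of all miRNAs with βTC1 highest was not computed. Between the untreated lines at 24 h, 62.5% of the 480 miRNAs tested were lower in αTC1-6. MiR-30e had means of 2.87 to 3.07 in the 4 αTC1-6 conditions and 1.47 in βTC1, so that βTC1 stood apart and the αTC1-6 conditions lay within 0.20 of each other, less than their largest SD of 0.33. The same held for miR-30c, with αTC1-6 means of -1.37 to -0.96, a largest SD of 0.89 and a βTC1 mean of -2.79, and for miR-30b, with -1.41 to -0.66, 0.97 and -2.41. For miR-30a and miR-30d all 5 means lay between 2.41 and 2.64 and between 3.62 and 3.99, and no neighbours in the order differed beyond their spread. The αTC1-6 conditions were farther apart for 5 of the 6 opposite strands, whose highest and lowest means differed by more than the largest SD. The range of the means was 1.30 for miR-30b* (largest SD 0.68), 1.98 for miR-30c-2* (1.37), 1.64 for miR-30d* (0.96) and 0.94 for miR-30e* (0.79). The fifth was miR-30c-1*, whose treated 48 h mean of 17.81 ± 4.61 holds the undetermined sample and whose other means were 11.79 to 12.74.

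MiR-384-5p carries the miR-30 seed on an X-linked hairpin (chrX:105344332-105344354 for the mature strand) and differs from miR-30a at 10 of 22 positions. It was detected in all 15 samples, and its ΔCt was 1.35 ± 0.36 in αTC1-6 and 1.87 ± 0.33 in βTC1 at 24 h (SD, n = 3), a log2 difference of 0.52 ± 0.45 (SE; limma adjusted p = 0.447). Its other arm, miR-384-3p, differed by 0.54 ± 0.65 (SE; limma adjusted p = 0.578). Neither arm passed the test in any of the 5 comparisons.

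The miR-200 group, which maintains the epithelial state that the miR-30 family is also linked to, was detected unevenly. MiR-200c had a Ct in all 15 samples. At 24 h miR-200a, miR-200b and miR-429 had no Ct in any untreated αTC1-6 sample, and in βTC1 they had one in 1, 3 and 2 of 3 samples. Of the 3 of its 5 members that could be tested between the lines, miR-200b passed as lower in αTC1-6 (limma adjusted p = 0.00116). With a Ct in βTC1 alone, it could only be lower. In either cytokine comparison 0 of the members tested passed. In αTC1-6 cells of 48 h miR-200a and miR-429 had a Ct in all 3 untreated and all 3 treated samples. Against untreated cells of 24 h, the untreated cells of 48 h had more miR-200a and miR-429 (limma adjusted p = 0.00229 and 0.0466), which were 2 of the 4 members tested there. Between these groups miR-200a and miR-429 had a Ct at 48 h alone, so they could only be higher.

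Over the 15 samples, the miRNAs outside the family whose negative ΔCt followed the mean of the 5 guides most closely were miR-324-5p (Pearson's r = 0.923), miR-148a (0.922), miR-720 (0.919), miR-16* (0.916) and miR-375 (0.911), of 268 with a Ct in every sample. All values share the miR-26a reference of their sample, and so does the mean of the guides. After centring each sample on its median the same r was 0.714, 0.696, 0.486, 0.553 and 0.730, and miR-106b (0.806) and miR-497 (0.804) came first. These correlations are a description across samples of 5 conditions, which are not all independent draws of 1 population.

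Within the family, miR-30b and miR-30c were the guides that varied together most, with r = 0.829 over the 15 samples and 0.678 after centring. MiR-30b and miR-30d, whose genes are neighbours, had an r of 0.528, and 0.220 after centring. MiR-30a and its own opposite strand had an r of 0.816, and 0.710 after centring. For miR-30b, miR-30d and miR-30e with their opposite strands it was 0.819, 0.433 and 0.659, and 0.568, -0.092 and 0.390 after centring. MiR-30c had an r of 0.590 with miR-30c-1* and 0.263 with miR-30c-2*. The assay for miR-30c-2*, whose duplicate wells agreed least, had a weak negative r with miR-30a (-0.36) and with miR-30a* (-0.37). Mir30a and Mir30c-2 are neighbours.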

How the data were processed

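MiRNAs were measured on TaqMan rodent cards A and B in 15 samples, 3 independent replicates of 5 conditions per the methods. The authors reverse transcribed and preamplified total RNA with Megaplex primer pools. They deposited Ct values, and ΔCt values on the log2 scale, which in these tables are relative to miR-26a alone. The methods describe several reference genes, and why the tables use 1 is not given in the sources used here. The deposited relative quantities are ratios to miR-26a, 2 to the power of the negative ΔCt, and none of 11310 values departed from this by more than 0.001 (log2). A further deposited table of fold changes between samples was not used. No per-sample column of the tables was left unmapped.

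Here Ct was taken from ΔCt plus the Ct of miR-26a, wells without a Ct were set to 40, and duplicate wells were averaged. The opposite strands, on card B, rest on the miR-26a Ct of card A. Each comparison was fitted on negative ΔCt with limma 3.58.1 (R 4.3.3, lmFit and eBayes, two-sided) over its own samples and all miRNAs with a Ct in no fewer of these samples than lacked one. P-values were adjusted by Benjamini-Hochberg card by card, and 0.05 was the threshold. The fits omitted miR-26a itself and 7 assays of control RNAs. The guides were compared with each other by exact permutation over all 10 splits. Python 3.11.15, pandas 2.3.3, numpy 2.4.6 and matplotlib 3.10.9 were used for tables and plots. The number of arrays limits the precision.

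The text names all members, miR-384, the miR-200 group and the 5 miRNAs most like the mean guide. MiR-106b and miR-497 were named after their values were seen. Marker lists covered islet, exocrine, blood, muscle, liver, and endothelial and mesenchymal miRNAs. Members and lists were chosen with earlier results of these data known.

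Replicate numbers were checked as pairs by the correlation of same-numbered samples' deviations from their group means over 278 miRNAs. Each sample was first centred on its median. The r was 0.133, 0.364 and 0.305 for treated and untreated cells at 24 h and 0.304, 0.414 and 0.183 at 48 h. The same number gave the highest r for each replicate there, so the numbers were taken to pair these samples. Between the lines r was lower, at 0.0933, 0.109 and 0.0518, although the same number again gave the highest r for each replicate. Between untreated 48 h and 24 h r was -0.121, 0.169 and 0.0599, and the same number was highest for replicate 2 alone. No cut-off for r was set, so these values do not settle whether the numbers pair the lines. The fit of the steady-state comparison was tested on simulated data, with 200 of 480 assays changed by 3 (log2) in 10 draws. It recovered a median of 53.5% of these changes, and a median of 2.35% of its calls were false. The planted changes were larger than any steady-state guide difference, of which the largest was -1.63. Noise was drawn independently for each assay, so these rates do not carry over to the guides. Alternatives covered the reference, the filter on detection, wells without a Ct, the adjustment, the samples fitted, the replicate block, the variance prior, the deposited table, duplicate wells and each replicate left out.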

Additional observations from a re-analysis of the deposited data

How the results depend on the processing

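The 0 members called under cytokines, with time and in the interaction stayed at 0 under every alternative, the replicate block included. At steady state the 1 call became 0 with samples centred on the median, with no filter, with adjustment over both cards and with the replicate block. It became 2 with a separate fit for each card (miR-30e and miR-30c), and 3 with 1 fit over all 15 samples (also miR-30c-2*) or a prior variance that follows the mean (also miR-30b and miR-30c). With Ct without normalization miR-30e (adjusted p = 0.136) gave way to miR-30c (adjusted p = 0.0314), and with the non-normalized table, which holds only the first of duplicate wells, to miR-30c-2* (adjusted p = 0.0438). The cause was not tested. Over the alternatives the adjusted p of miR-30e ran from 0.00373 to 0.174. Leaving out 1 replicate gave 0 to 1 call, the call being miR-30c without αTC1-6 replicate 1.

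The steady-state median of the members was -0.41 after centring. The 48 h cytokine median was 0.12 after centring and 0.35 with U6 and small nucleolar RNAs. The interaction median was 0.076 after centring, -0.21 without normalization and 0.0019 with U6, and the untreated time median was 0.037 with U6. Leaving out a replicate, the medians ran from -0.24 to 0.44 (24 h), -0.73 to -0.013 (48 h), -0.85 to -0.10 (interaction) and -0.45 to 0.079 (untreated time).

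Differences that turned sign were none past the threshold. At steady state miR-30a was -0.21 with U6 and -0.18 with the 48 h controls, miR-30d -0.20 and -0.30, and miR-30b* 0.10 after centring. At 48 h miR-30b was 0.086 and miR-30c 0.029 after centring, and miR-30c-2* was -0.78 with the non-normalized table. Leaving out a replicate, the steady-state ranges were -0.19 to 0.29 for miR-30a, -0.28 to 0.47 for miR-30d, -0.25 to 0.35 for miR-30a* and -0.80 to 0.0053 for miR-30b*. At 24 h they were -0.33 to 0.18 for miR-30a, -0.38 to 0.25 for miR-30b, -0.52 to 0.38 for miR-30c and -0.71 to 0.16 for miR-30d. At 48 h they were -0.19 to 0.53 for miR-30a, -0.83 to 0.14 for miR-30b, -0.35 to 0.23 for miR-30d, -0.063 to 0.26 for miR-30e and -0.10 to 0.78 for miR-30c-2*.

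Of all miRNAs at steady state, 135 passed, and 75 with a Ct under 40 in every sample. At 24 h the count of 1 became 0 with a Ct under 40 in every sample, Ct above 35 set to 35, the replicate block, the variance prior or the non-normalized table, and 2 with 1 fit over all samples. At 48 h the count of 3 became 1 with undetermined wells missing, 6 with 1 fit over all samples and 0 with the block. In the interaction the count of 1 became 3 with no filter, 2 with undetermined wells missing and 0 with a Ct under 40 in every sample, the cap at 35 or the non-normalized table. In untreated cells the count of 27 became 1 with a Ct under 40 in every sample, 0 with undetermined wells missing and 2 with the non-normalized table. Leaving out a replicate, these counts ran from 81 to 101, 0 to 2, 0 to 4, 1 to 3 and 0 to 28. A pair of alternatives, the mean of the wells with a Ct and a separate fit for each card, were chosen after seeing the data.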
